A study of Mus musculus with 8 samples.

Results

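The genes described here carry glucose into the cell and break it down: glucose transporters, the enzymes of glycolysis and of the pentose phosphate pathway, the lactate dehydrogenases and lactate carriers, and the glycerol-3-phosphate dehydrogenases. A list of 37 mouse genes was looked up by RefSeq accession among 23360 symbols, and where a symbol had more than 1 row the row with the highest total was taken. Of the 37 genes, 36 had a row, and 6-phosphogluconate dehydrogenase (Pgd) was not analysed here. Eno3, Pfkm and Pgam2, isoforms abundant in skeletal muscle, are described apart from the rest.

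Glycolysis splits glucose into pyruvate, which is turned into lactate or oxidised in mitochondria. The pentose phosphate pathway uses the same glucose-6-phosphate to make NADPH, which fat cells spend on fatty acid synthesis, and glycerol-3-phosphate dehydrogenase draws a glycolytic intermediate into the glycerol backbone of triglycerides. In fat cells insulin moves the transporter GLUT4 to the cell surface, so uptake depends on where the protein is as well as on its amount.

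RNA was sequenced from inguinal white adipose tissue, a fat depot under the skin, of mice aged 6 weeks. The 4 Lsd1 KO libraries came from Lsd1 floxed mice crossed to Adipoq-Cre mice, in which Cre is driven by the adiponectin promoter of fat cells, and the 4 Control libraries came from Lsd1 floxed mice. Lsd1 is a histone demethylase encoded by Kdm1a. No group with Cre alone was described, so deletion and transgene cannot be told apart. Other cells of the tissue keep Lsd1. The sources used here do not say which exons are floxed or whether each library is a separate mouse, so p-values measure the spread between these libraries.

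Each library held 25671837 to 32442724 recovered reads. Kdm1a had 566, 578, 547 and 581 in KO libraries 1 to 4, against 699, 685, 799 and 735 in Control libraries 1 to 4, in scaled read counts, with no overlap between the groups. Kdm1a fell by 22.1% in KO (log2 fold change -0.36 with an SE of 0.0750; limma adjusted p = 0.0498), a call lost in 16 of 23 alternatives and on leaving out any 1 library (adjusted p = 0.0593 to 0.158). Values below are scaled read counts, that is, reads multiplied by 1 factor per library, and fold changes are KO minus Control on the log2(value + 1) scale. A gene was called when its limma p, adjusted over the 14591 genes tested, was under 0.05.

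Cell type markers differed between the libraries. The 13 adipocyte markers were all present and none was at 0. Their sum was 554862 to 627221 in KO and 698645 to 877339 in Control, and 12 of 13 had a negative fold change, of which Cidec, a lipid droplet protein, was called. In bulk tissue, fewer cells of a type and less RNA per cell cannot be told apart. Skeletal muscle markers summed to 228841, 214873, 14957 and 132505 in KO libraries 1 to 4, against 29575, 33377, 44329 and 10353 in Control libraries 1 to 4. KO library 3 thus lay within the Control range and the other KO libraries above it. Of 20 muscle markers 19 had a row, none was at 0, and all 19 had a positive fold change, with a median of 1.93 and none called. The 6 macrophage markers with a row also had positive fold changes and summed to 23805 to 30071 in KO and 20101 to 24421 in Control. All 7 endothelial markers had negative fold changes, 2 of them without overlap, and summed to 11916 to 14239 in KO and 14002 to 16194 in Control. All 8 B cell markers had positive fold changes and summed to 10423 to 14539 in KO and 6554 to 14524 in Control. The 8 mammary epithelium markers were low, with 3 tested, all with positive fold changes, and with Krt5, Krt8, Krt14 and Elf5 at 0 in at least 1 library. They summed to 585, 287, 137 and 128 in KO libraries 1 to 4, against 96.2 to 147 in Control, so KO libraries 1 and 2 lay above the Control range. The 6 fibroblast and progenitor markers also had positive fold changes, with sums of 68018 to 99493 in KO and 70105 to 81068 in Control. No marker of the macrophage, endothelial, B cell, mammary, or fibroblast and progenitor lists was called. Erythroid and Schwann cell markers had fold changes of both signs, none called. The part of these cells in the results below was not tested beyond the values given.

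All 36 genes passed the filter on low values. Hexokinase 1 (Hk1) rose in KO and was the 1 gene called higher, and none was called lower, where 1.28% of all genes tested were called higher, 0.356% lower and 1.64% in either direction. A further 4 genes, Aldoa, Tpi1, Pfkp and Ldhb, had every KO library above every Control library, 5 of 36 with Hk1 (13.9%), against 5.06% of all genes. No gene of the list had every KO library below every Control library, against 3.58% of all genes and 8.65% without overlap in either direction. Fold changes were positive for 27 genes and negative for 9, that is, positive for 75.0%, against 54.6% of all genes, and their median was 0.15 against 0.02. Without the muscle-abundant isoforms the median was also 0.15. DESeq2 on the recovered reads called 6 of the 36 genes higher (Hk1, Pfkm, Aldoa, Tpi1, Ldhb and Slc16a3) and 1 lower (Pfkfb3), where it called 3.37% of all genes higher and 1.95% lower.

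**Figure D1:**
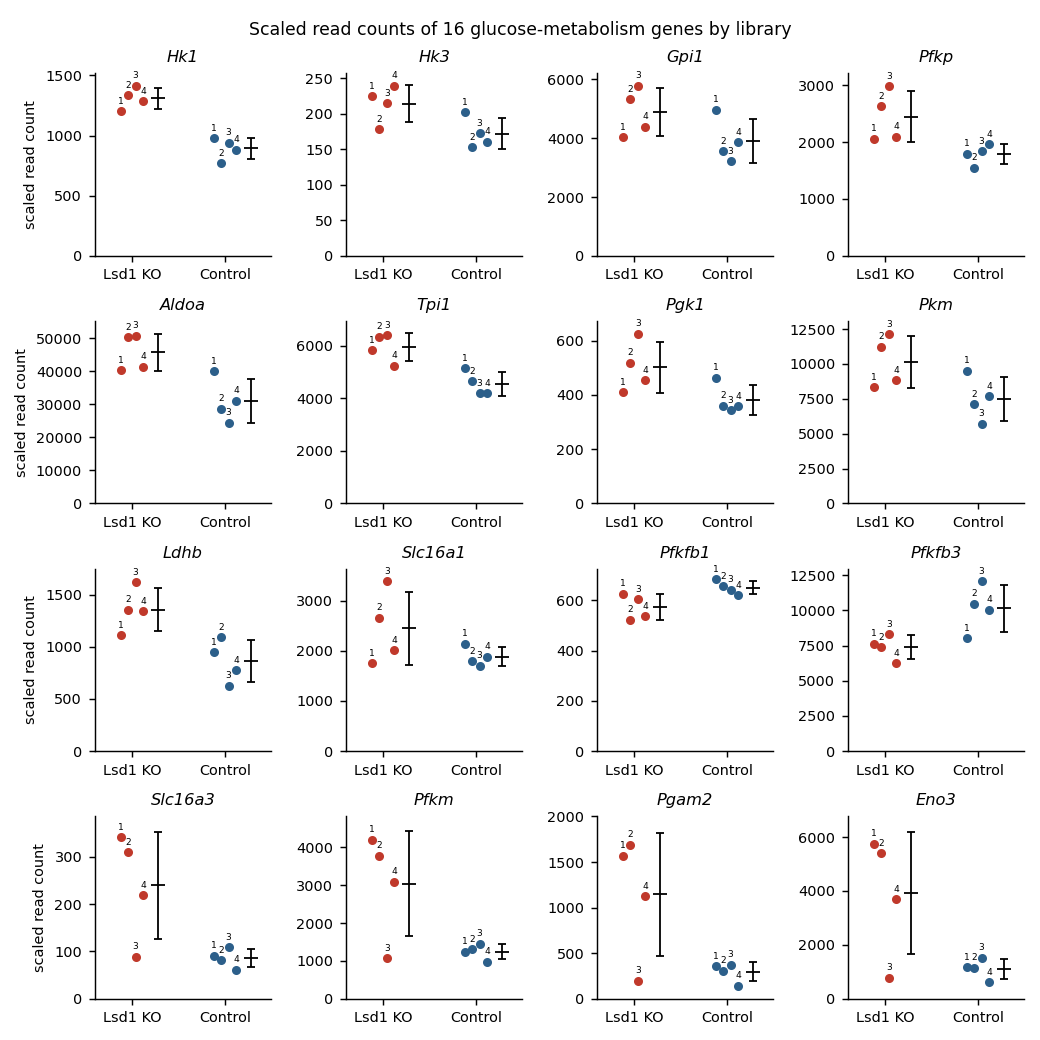
Scaled read counts (y axes, from 0) of the 16 genes given with full statistics, for Lsd1 KO (red) and Control (blue) libraries numbered by replicate; bars are the mean and SD of 4 libraries. All KO points lie above all Control points for Hk1, Pfkp, Aldoa, Tpi1 and Ldhb, and KO library 3 lies with the Control libraries for Slc16a3, Pfkm, Pgam2 and Eno3.

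The sequences before RefSeq start sites of the 5 genes whose groups did not overlap are shown, with the words ACGTG and GCGTG marked. The hypoxia-inducible factors, which bind these words, are known regulators of glycolytic genes. Epas1, described further on, encodes such a factor and was lower in KO, in a call lost in 19 of 23 alternatives. Hif1a and Arnt, listed with Epas1 as regulators of sugar metabolism genes, were not called. Their log2 fold changes were -0.09 and -0.20 (limma adjusted p = 0.596 and 0.446). Whether such factors act on the 5 genes was not tested. Each sequence is the 250 bases before the RefSeq start (GRCm38.p6) nearest the GENCODE start of the counted transcript. It runs 5′ to 3′ on the strand of the gene, with ACGTG and GCGTG on either strand in capitals (CACGT and CACGC when on the other strand). The distance between these starts was 0 bases for Hk1, Aldoa and Ldhb, 6 for Pfkp and 138 for Tpi1, whose window lies partly inside that transcript. Among the windows searched for the list it reached 587 bases (Slc16a3). The RefSeq table holds 2 such windows for Hk1, 3 for Aldoa and 1 for each of the others. Besides the window at the counted start, the one at the Hk1 start 39487 bases downstream is given, and the other Aldoa windows are not shown.
Hk1, counted transcript (chr10:62379909-62380158, minus strand): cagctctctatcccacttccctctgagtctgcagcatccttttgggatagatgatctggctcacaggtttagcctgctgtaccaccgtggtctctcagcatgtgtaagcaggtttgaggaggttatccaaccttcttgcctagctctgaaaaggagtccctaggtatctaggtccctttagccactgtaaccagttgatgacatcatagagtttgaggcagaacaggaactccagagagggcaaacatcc
Hk1, downstream start (chr10:62340422-62340671, minus strand): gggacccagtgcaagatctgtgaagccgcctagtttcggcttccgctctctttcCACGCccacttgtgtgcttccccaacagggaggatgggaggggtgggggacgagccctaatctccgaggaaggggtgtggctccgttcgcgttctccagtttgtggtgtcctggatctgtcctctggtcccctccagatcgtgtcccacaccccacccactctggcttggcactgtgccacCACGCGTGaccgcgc
Pfkp (chr13:6648772-6649021, minus strand): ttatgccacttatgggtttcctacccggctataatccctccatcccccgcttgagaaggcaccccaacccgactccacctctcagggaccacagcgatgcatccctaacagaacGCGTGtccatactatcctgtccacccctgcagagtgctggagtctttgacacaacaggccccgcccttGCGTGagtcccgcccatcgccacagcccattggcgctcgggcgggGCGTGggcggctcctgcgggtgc
Aldoa (chr7:126799255-126799504, minus strand): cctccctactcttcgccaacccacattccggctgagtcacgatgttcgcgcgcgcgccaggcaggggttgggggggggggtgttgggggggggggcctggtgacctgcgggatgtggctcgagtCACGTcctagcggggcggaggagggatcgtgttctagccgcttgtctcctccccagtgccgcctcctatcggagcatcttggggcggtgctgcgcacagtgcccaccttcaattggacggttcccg
Tpi1 (chr6:124814159-124814408, minus strand): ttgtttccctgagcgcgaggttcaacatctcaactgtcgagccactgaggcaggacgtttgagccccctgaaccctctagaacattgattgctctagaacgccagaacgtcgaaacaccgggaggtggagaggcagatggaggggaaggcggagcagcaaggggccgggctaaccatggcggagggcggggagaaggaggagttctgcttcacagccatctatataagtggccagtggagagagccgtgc
Ldhb (chr6:142507958-142508207, minus strand): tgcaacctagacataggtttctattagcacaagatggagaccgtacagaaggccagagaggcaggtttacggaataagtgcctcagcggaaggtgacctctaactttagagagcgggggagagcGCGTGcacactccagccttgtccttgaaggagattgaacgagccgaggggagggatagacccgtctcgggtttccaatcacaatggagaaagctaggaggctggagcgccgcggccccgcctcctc

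The Hk1 window at the counted start and the Tpi1 window held neither word, the downstream Hk1 window and the Pfkp window held 3 matches each, and the Aldoa and Ldhb windows held 1 each. A match in the downstream Hk1 window overlaps another. A window was found for 33 of the 36 genes, all but Gpd1, Slc2a3 and Slc2a4, with 1 window taken per gene. Of these, 25 (75.8%) held at least 1 of the words, against 44.0% of 21263 windows of protein-coding genes. The 21263 include every window of a gene with several starts. Both words contain CG, and the windows were not matched for base composition. ACGTG was in 39.4% of the 33 windows against 17.8% of all, and GCGTG in 51.5% against 33.8%. The longer palindrome CACGTG, which contains ACGTG, was in 15.2% against 6.63%. These are letter matches within 250 bases, and no binding was measured.

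Among the genes of uptake and phosphorylation, Hk1 rose. Hk1 encodes the hexokinase that most tissues use to trap glucose as glucose-6-phosphate, and lies on the minus strand of chr10:62268855-62379920 (GRCm38.p6). It had 1202, 1334, 1413 and 1285 in KO libraries 1 to 4, against 977, 770.1, 941 and 881 in Control libraries 1 to 4. The lowest KO library lay above the highest Control library. KO library 3 was the highest of all for Hk1, and it was the highest KO library for 25 of the 36 genes of the list. Hk1 averaged 1309 ± 88.4 in KO and 892 ± 90.5 in Control (SD, n = 4 each), a rise of 46.7% (log2 fold change 0.56, SE 0.0915, limma adjusted p = 0.0175). The fold change was between 0.49 and 0.67 in all 23 alternatives, but the call was lost in 5 of them, with adjusted p = 0.0786 without KO library 2, 0.0711 without KO library 4, 0.0582 without Control library 4, 0.0727 without Control libraries 1 and 2 together and 0.139 with KO library 3 as the lone knockout library, in a range of 1.82e-05 to 0.139 over all alternatives. With the muscle marker score as a covariate the fold change was 0.61 (limma adjusted p = 0.0335). No exon of another annotated gene overlapped Hk1 exons, and no 50-base word of its transcript was in an annotated pseudogene.

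The other hexokinases and the transporters did not pass the test. Hk2, the insulin-regulated hexokinase of muscle and fat, had 2678, 3648, 6669.6 and 3713 in the KO libraries, against 4133, 4635, 2381 and 3358 in the Control libraries. The groups overlapped over nearly the whole Control range. Hk3 had 225, 178, 215 and 239 in the KO libraries, against 202, 153, 173 and 160.4 in the Control libraries (log2 fold change 0.32, SE 0.130, limma adjusted p = 0.307), with 1 KO library inside the Control range. Slc2a4, which encodes GLUT4, had 5133, 6201, 7893 and 5756 in the KO libraries, against 7381, 4320.2, 4657 and 6390.4 in the Control libraries, and the groups overlapped. GLUT4 made up 91.9% ± 1.71 of the 3 glucose transporters per kilobase of transcript in KO and 91.1% ± 2.39 in Control (SD, n = 4 each). The basal transporter GLUT1 (Slc2a1) ranged over 428 to 457 in KO and 367 to 533 in Control, and GLUT3 (Slc2a3), known best from neurons, over 248 to 381 in KO and 285 to 334 in Control.

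All 6 genes of upper glycolysis had positive fold changes, with a median of 0.41, and in 3 of them the groups did not overlap, but none passed the test. Aldoa, the aldolase that splits fructose-1,6-bisphosphate, had 40345, 50283, 50772 and 41413 in KO libraries 1 to 4, against 40058, 28721, 24396 and 31103 in Control libraries 1 to 4. The highest Control library nearly reached the lowest KO library (log2 fold change 0.57, SE 0.173, limma adjusted p = 0.163). Aldoa had the highest level of the list per kilobase of transcript, 30247 ± 3700.5 in KO and 20562 ± 4371 in Control (SD, n = 4 each). Tpi1, which interconverts the triose phosphates made by aldolase, had 5841, 6347, 6399 and 5243 in the KO libraries, against 5141, 4649, 4200.1 and 4185 in the Control libraries. The gap between the groups was small beside the spread within them (log2 fold change 0.39, SE 0.0989, limma adjusted p = 0.100). Pfkp, the platelet-type phosphofructokinase, had 2059, 2633, 2987 and 2092 in the KO libraries, against 1798, 1549, 1841 and 1962 in the Control libraries (log2 fold change 0.44, SE 0.130, limma adjusted p = 0.155). KO library 3 was the highest of all for Aldoa, Tpi1 and Pfkp. With the muscle score as a covariate Pfkp had a fold change of 0.64 and was called (limma adjusted p = 0.0441, range over alternatives 0.0441 to 0.629). Exons of Pitrm1 on the other strand overlap Pfkp over 748 bases, and reads of overlapping exons cannot be told apart without knowing the strand setting.

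Of the remaining upper genes, Gpi1, which turns glucose-6-phosphate into fructose-6-phosphate, had 4037, 5331, 5784 and 4394 in the KO libraries, against 4972, 3563, 3216 and 3874 in the Control libraries, with overlapping groups (log2 fold change 0.33, SE 0.154, limma adjusted p = 0.372). Pfkl, the liver-type phosphofructokinase, ranged over 2756 to 6394 in KO and 2637 to 4986 in Control. Aldoc, the brain aldolase, was near the bottom of the list at 12.5 to 29.6 in KO and 12.7 to 17.7 in Control, with the groups overlapping. It was the 1 gene of the 36 that a filter at 50 in place of 10 removed.

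The muscle-abundant isoforms split the KO libraries. Eno3, the muscle enolase, had 5751, 5398, 788 and 3704 in KO libraries 1 to 4, against 1163, 1159.8, 1520.3 and 604 in Control libraries 1 to 4. KO libraries 1, 2 and 4 lay above every Control library and KO library 3 lay between the Control values, so the groups overlapped (log2 fold change 1.55, SE 0.573, limma adjusted p = 0.256). Pgam2, the muscle phosphoglycerate mutase, had 1571, 1692, 199 and 1125 in the KO libraries, against 356, 310.1, 373 and 145 in the Control libraries, in the same pattern (log2 fold change 1.66, SE 0.623, limma adjusted p = 0.262). Pfkm, the muscle phosphofructokinase, had 4198, 3783, 1073 and 3087 in the KO libraries, against 1240.2, 1303, 1456 and 974 in the Control libraries, again with KO library 3 inside the Control range (log2 fold change 1.13, SE 0.371, limma adjusted p = 0.198). Slc16a3, which encodes the lactate exporter MCT4 of glycolytic tissues and was not set apart by the list, had the same order: 341, 310.2, 88.9 and 219 in the KO libraries, against 91.3, 82.1, 109 and 61.4 in the Control libraries (log2 fold change 1.33, SE 0.381, limma adjusted p = 0.139).

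These 4 genes were high in KO libraries 1, 2 and 4, the same libraries in which the summed muscle markers were high. Without KO library 3 all 4 were called higher, with Hk1 making 5. That fit called 429 genes of the whole table in either direction, against 239 with all libraries. With KO library 3 as the lone knockout library the fold changes were -0.42 for Eno3, -0.48 for Pgam2 and -0.20 for Pfkm, opposite to the values over all libraries, and 0.08 for Slc16a3. With the muscle score as a covariate their fold changes were 0.21 for Eno3, 0.21 for Pgam2, 0.28 for Pfkm and 0.48 for Slc16a3, and none was called. With the mammary score, which was also high in KO libraries 1 and 2, they were 0.93 for Eno3, 1.04 for Pgam2, 0.72 for Pfkm and 0.88 for Slc16a3, again with none called. Hk1, Aldoa, Tpi1, Ldhb and Pfkp had fold changes of 0.67, 0.73, 0.50, 0.94 and 0.75 with KO library 3 as the lone knockout library. Their positive sign was fixed in advance, since these genes have every KO library above every Control library. The part of muscle in their levels was not tested by that fit.

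**Figure D2:**
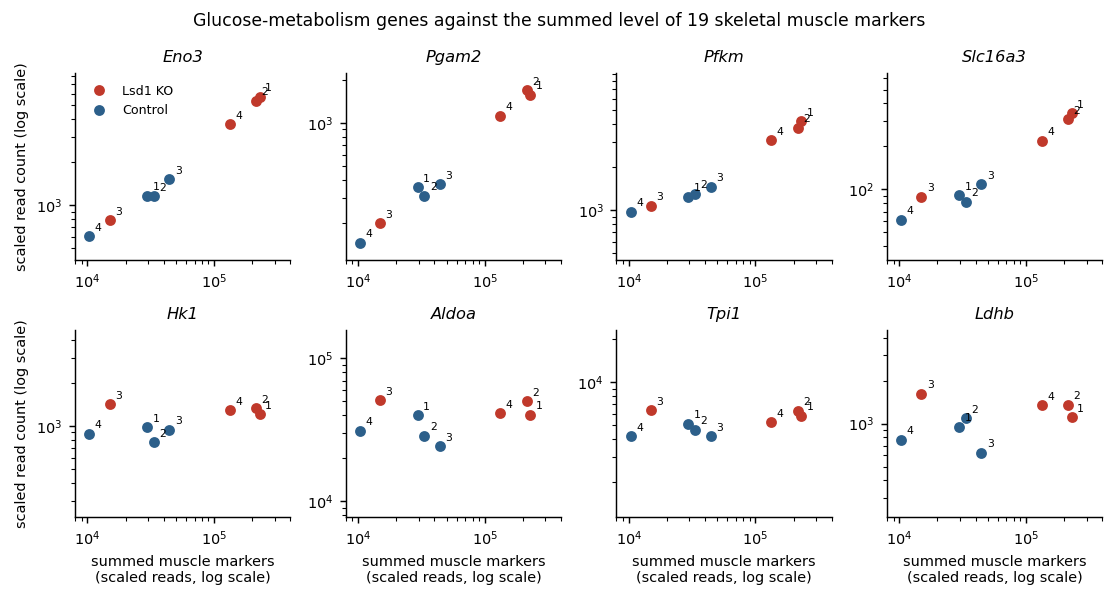
Scaled read counts of 8 genes (y axes, log scale) against the sum of 19 skeletal muscle markers (x axes, log scale), 1 point per library (KO red, Control blue). Eno3, Pgam2, Pfkm and Slc16a3 are high in KO libraries 1, 2 and 4, where the markers summed to 132505 or more. Hk1, Aldoa, Tpi1 and Ldhb are as high in KO library 3, where the markers summed to 14957. The latter are genes with every KO library above every Control library, so KO library 3 is above Control by that choice.

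**Figure D3:**
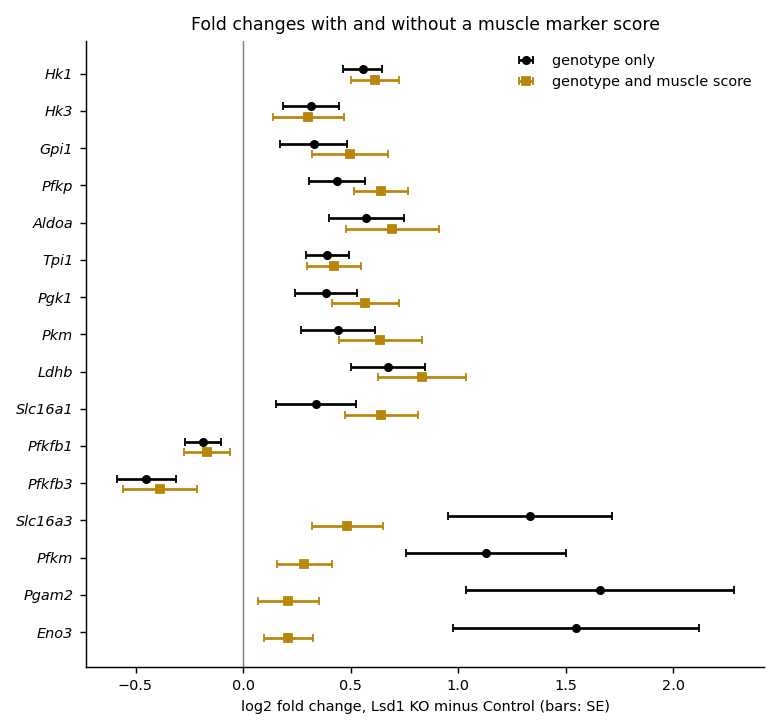
Log2 fold change (KO minus Control, x axis) with its SE for 16 genes, from the fit with genotype alone (black circles) and with the muscle marker score added (gold squares). With the score Eno3 is at 0.21, against 1.55 without it, and Hk1 at 0.61, against 0.56.

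Of the 4 PFKFB genes 3 had negative fold changes and none passed the test. These enzymes make and degrade fructose-2,6-bisphosphate, the activator of phosphofructokinase. Pfkfb3, whose enzyme mainly makes it, had 7635, 7387, 8311 and 6227 in the KO libraries, against 8025, 10470.0, 12063 and 10048 in the Control libraries. KO library 3, the highest KO library, lay just above the lowest Control library (log2 fold change -0.45, SE 0.137, limma adjusted p = 0.163). Pfkfb1 had 627, 523, 604 and 536 in the KO libraries, against 684, 655, 642 and 620.4 in the Control libraries, with KO library 1 just above Control library 4 (log2 fold change -0.19, SE 0.0835, limma adjusted p = 0.343). Pfkfb2 ranged over 158 to 245 in KO and 200.5 to 237 in Control, and its exons overlap those of the predicted gene Gm29427 over 1241 bases. Pfkfb4 ranged over 439.7 to 450.1 in KO and 347 to 499.8 in Control.

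In lower glycolysis 4 of 6 genes had positive fold changes and none passed. Pkm, pyruvate kinase, had 8324, 11254, 12147 and 8823 in the KO libraries, against 9506, 7125, 5722 and 7669 in the Control libraries (log2 fold change 0.44, SE 0.172, limma adjusted p = 0.283). The highest Control library lay inside the KO range. Pgk1, the first enzyme of glycolysis to make ATP, had 409, 518, 626 and 455 in the KO libraries, against 463, 361, 345 and 359 in the Control libraries, with Control library 1 inside the KO range (log2 fold change 0.39, SE 0.145, limma adjusted p = 0.262). Eno1, the widely expressed enolase, ranged over 1277 to 4349.5 in KO and 1645 to 3239 in Control, Pgam1 over 369 to 518 in KO and 292 to 474 in Control, and the neuronal enolase Eno2 over 166 to 214 in KO and 192 to 225 in Control.

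Gapdh was counted at 39.8 to 72.1 in KO and 37.1 to 73.7 in Control. Of the 50-base words of its transcript, 82.5% were also in annotated pseudogenes, 213 of them. The share was 68.0% for Pgk1, 52.8% for Eno1, 41.5% for Pgam1, 30.5% for Pkm and 27.0% for Ldhb. It was 19.1% for Ldha, 18.9% for Gpi1, 12.4% for Taldo1, 8.82% for Aldoa and 7.51% for Tpi1. It was 0 for Hk1, Pfkp, Eno3, Pgam2, Pfkm and Tkt. Over all other annotated genes the share was higher for some, such as 72.2% for Eno1 and 25.3% for Gpi1. How the authors' counting treated reads that match several places is not given in the sources used here, so levels of the genes with high shares are uncertain, and the part of shared sequence in them was not tested.

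**Figure D4:**
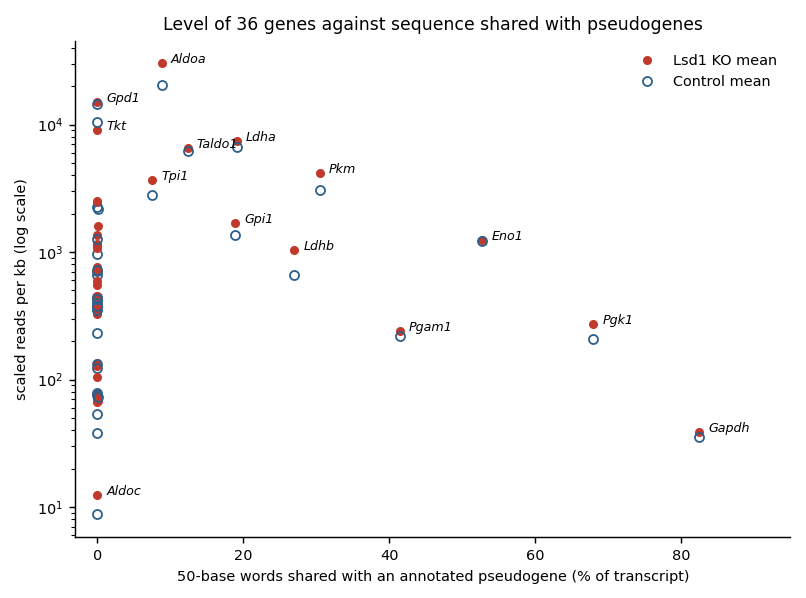
Scaled reads per kilobase of transcript (y axis, log scale; filled red, KO mean; open blue, Control mean of 4 libraries) against the percentage of 50-base words of the transcript found in annotated pseudogenes (x axis), for 36 genes. Gapdh, at 82.5%, has 38.6 per kilobase in KO and 35.1 in Control, and Aldoa, at 8.82%, has 30247 and 20562.

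All 4 lactate genes had positive fold changes, with a median of 0.51, and none passed the test. Ldhb, the heart-type lactate dehydrogenase subunit, had 1111, 1356, 1617 and 1341 in KO libraries 1 to 4, against 949, 1090.0, 627 and 774 in Control libraries 1 to 4. The groups did not overlap, by a narrow margin, and KO library 3 was again the highest (log2 fold change 0.67, SE 0.172, limma adjusted p = 0.102). Without Control libraries 1 and 2, whose title numbers 518 and 517 lie apart from the rest, Ldhb was the 1 gene of the list called, in place of Hk1. Ldha, the muscle-type subunit, ranged over 9812 to 14753 in KO and 9184 to 12878 in Control. Slc16a1, which encodes the carrier MCT1, had 1747, 2657, 3383 and 2014 in the KO libraries, against 2142, 1795, 1704 and 1886 in the Control libraries, with overlap (log2 fold change 0.34, SE 0.184, limma adjusted p = 0.447). With the muscle score as a covariate the fold change was 0.64, not called.

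No gene of the pentose phosphate pathway or of glycerol-3-phosphate passed the test. Of the 5 pentose phosphate genes 2 had positive and 3 negative fold changes, with a median of -0.08. G6pdx, the enzyme that commits glucose-6-phosphate to the pathway, had 2509, 3075, 3704 and 2821 in the KO libraries, against 4236, 2973, 2756 and 3388 in the Control libraries. The KO libraries lay inside or below the Control range. Tkt, transketolase, had 18674, 30081, 44771 and 22545 in the KO libraries, against 52166, 29446, 20977 and 32142 in the Control libraries, a spread of over 2-fold inside each group. Taldo1, transaldolase, ranged over 6151 to 10819 in KO and 6096 to 9059 in Control, Rpia over 652 to 1137 in KO and 662 to 757 in Control and Rpe over 821 to 1117 in KO and 959 to 1104 in Control. Gpd1, the cytosolic glycerol-3-phosphate dehydrogenase, was second to Aldoa per kilobase of transcript, at 15026 ± 5894 in KO and 14458 ± 4538 in Control (SD, n = 4 each). Its scaled counts were 29922, 48256, 64555 and 29223 in the KO libraries, against 59943, 38426, 29705 and 37384 in the Control libraries. Gpd2, the mitochondrial enzyme, ranged over 3185 to 4737 in KO and 2761 to 5769 in Control. The limma adjusted p of the 20 genes without a fold change of their own here lay between 0.536 and 0.994.

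Within families, the share of each isoform was taken per kilobase of transcript. Pfkm held 54.8%, 42.0%, 13.6% and 42.6% of the phosphofructokinases in KO libraries 1 to 4, against 20.02%, 27.1%, 31.1% and 19.9% in Control libraries 1 to 4. KO library 3 had the lowest share of all 8 and the other KO libraries the highest. Hk1 held 35.98%, 32.6%, 22.3% and 30.9% of the hexokinases in KO, against 23.8%, 18.4%, 33.5% and 25.8% in Control, so its higher level did not separate the groups by share. MCT4 (Slc16a3) held 27.5%, 18.5%, 4.87% and 17.5% of the 2 monocarboxylate carriers in KO, against 7.67%, 8.18%, 11.1% and 5.96% in Control. The share of Eno2 among enolases was 1.28% to 2.32% in KO and 3.24% to 4.70% in Control, and that of Pfkfb4 among PFKFB genes was 5.43% to 6.95% in KO and 3.55% to 5.24% in Control, without overlap. Every other share taken overlapped between the groups. The scaled counts of Eno2 and Pfkfb4 themselves overlapped, and a share also moves with the levels of the other genes of its family. These shares were not tested.

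**Figure D5:**
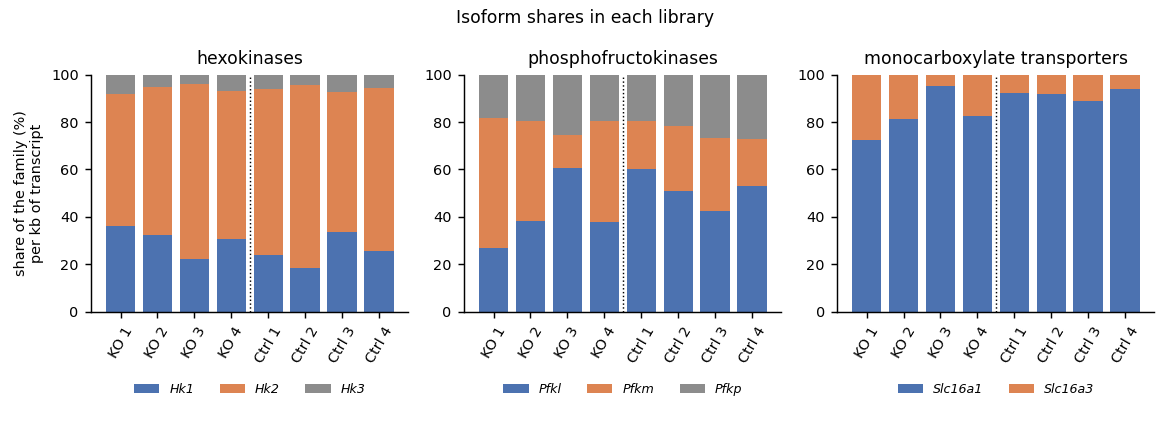
Share of each isoform (%, y axis) in its family, per kilobase of transcript, in each library, with KO libraries left of the dotted line and Control libraries right of it. The Pfkm share is 13.6% in KO library 3 and 42.0% or more in the other KO libraries, against at most 31.1% in Control.

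The list also varied within each genotype. KO library 3 was the highest KO library for 25 of the 36 genes (69.4%), against 32.1% of all genes tested, and KO library 1 was the lowest for 19, where it was the lowest for 28.9% of all genes. Control library 1 was the highest Control library for 22 genes (61.1%), against 20.8% of all genes, and Control library 3 was the lowest for 19, against 17.3% of all genes. Gpd1, Tkt, Taldo1, Eno1 and Slc2a4 all had their highest KO value in library 3 and their highest Control value in library 1. Control library 1 also stood apart in Ldhc, Pgk2 and Gapdhs, relatives of Ldha, Pgk1 and Gapdh outside the list. It had 168 for Ldhc, against 0 to 5.75 in the other libraries, and 67.35 for Pgk2, against 0 to 0.98. For Gapdhs it had 135, against 27.75 to 57.76. The cause was not tested.

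A further 71 genes next to these pathways were listed, of which 70 had a row and 58 were tested. None was called higher and 2 were called lower, where 1.28% and 0.356% of all genes were. Ldhd, the mitochondrial dehydrogenase of D-lactate, had 561, 475, 474 and 525 in the KO libraries, against 960.0, 1066, 659 and 875 in the Control libraries. The groups did not overlap, and it fell in KO (log2 fold change -0.79, SE 0.140, limma adjusted p = 0.0243), a call lost in 9 of 23 alternatives, among them leaving out KO library 2 or 4 or Control library 1, 2 or 4 (adjusted p = 0.00496 to 0.101 over leaving out each library). Epas1, which encodes the hypoxia-inducible factor HIF-2α, had 4079.7, 3963, 4214 and 3865 in the KO libraries, against 5409, 5641, 4686 and 5269 in the Control libraries. It too fell without overlap (log2 fold change -0.38, SE 0.0794, limma adjusted p = 0.0498), and the call was lost in 19 of 23 alternatives, among them leaving out any library but KO library 3 or Control library 3 (adjusted p = 0.0369 to 0.184 over leaving out each library).

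The 8 next genes by p did not pass the limma test, although DESeq2 called Pdk3 higher (adjusted p = 0.0150, range over alternatives 0.0150 to 0.382) and Shpk lower (adjusted p = 0.0164, range 0.0164 to 0.485). Pdk3, a kinase that switches off pyruvate dehydrogenase, had 214, 204, 226 and 235 in the KO libraries, against 168, 117, 183 and 139.8 in the Control libraries, without overlap (log2 fold change 0.55, SE 0.145, limma adjusted p = 0.112), and its relative Pdk1 had 1587, 1658, 1822 and 1557 in the KO libraries, against 2334, 1902, 1780.3 and 2059 in the Control libraries, with overlap (log2 fold change -0.28, SE 0.0959, limma adjusted p = 0.215). Shpk, sedoheptulokinase of the pentose phosphate pathway, had 359, 304, 337 and 378 in the KO libraries, against 415, 465, 427 and 427 in the Control libraries, with every KO library lower (log2 fold change -0.33, SE 0.0915, limma adjusted p = 0.125). Slc37a4, the carrier of glucose-6-phosphate into the endoplasmic reticulum, had 515, 603, 599 and 519 in the KO libraries, against 492, 464, 473 and 483 in the Control libraries, with every KO library higher (log2 fold change 0.22, SE 0.0825, limma adjusted p = 0.258). In the rest the groups overlapped. Egln3, a prolyl hydroxylase that marks hypoxia-inducible factors for destruction, had a log2 fold change of 0.63, Pdp2, a phosphatase that reactivates pyruvate dehydrogenase, -0.46, Pcx, pyruvate carboxylase, -0.48, and Pck2, the mitochondrial phosphoenolpyruvate carboxykinase, 0.32, with limma adjusted p of 0.168, 0.205, 0.275 and 0.290. By sign the 58 genes divided into 27 positive and 31 negative, with a median of -0.02.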

How the data were processed

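Gene values came from 8 libraries of inguinal adipose tissue, 4 Lsd1 KO and 4 Control. The authors mapped reads to mm10 with TopHat (version 2), used HOMER for counting and looked for changed genes with edgeR and DESeq (version 1.8.3), per the series design text and, for the tools, the submitters' processing notes. Not given in the sources used here are the annotation, the strand setting, the scaling and the treatment of reads that match several places. The deposited values are a signal, 1 per RefSeq accession: from 99.96 to 100% of the values above 0 in a library were whole multiples of 1 step (0.442 to 0.545, tolerance 0.02), so they are counts multiplied by 1 factor. Dividing by the step recovered the reads. Of 23373 rows per file, 1 had no accession and held 0. Accessions were matched to symbols in a RefSeq table of GRCm38.p6 (22527) or in GENCODE M21 (124), 721 kept their accession, and 12 rows were dropped as the lower of a pair for a symbol. Intervals are not given, since the step may not be 1 molecule.

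The main test was limma (3.58.1, R 4.3.3) on log2(value + 1), with a mean-variance trend, a pseudocount of 1 and genotype as the only term. It covered genes at 10 or more in 4 or more libraries, with Benjamini-Hochberg adjustment over 14591 genes. It called 239 genes (1.64%). The edgeR (4.0.16) quasi-likelihood test on the recovered reads, with TMM factors, called 218. In data simulated for KO against Control on 14489 genes with 200 changed, the test recovered 50% of the 1.5-fold changes, 84% of the 2-fold, 100% of the 4-fold and 100% of the 8-fold ones, with 11 false among 178 called. Tables and figures were made with Python 3.11.15, pandas 2.3.3 and matplotlib 3.10.9.

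Full statistics are given for Kdm1a, each listed gene that passed, Eno3, Pfkm, Pgam2 and the next 12 listed genes by p, and, of the other pathway genes, those that passed and the next 8 by p with a mean of at least 100. The members, lists and alternatives were chosen with earlier results of these data known. Words of 50 bases were compared between the counted transcripts and all GENCODE M21 transcripts. Alternatives were DESeq2 (1.42.0), edgeR, limma-voom, other scalings, filters (none, or 50) and pseudocounts (0.5 and 5), leaving out libraries, and marker scores as covariates. No title number occurs in both genotypes, and libraries were not paired.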

Additional observations from a re-analysis of the deposited data

Results flagged for a closer look

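Among 94 groups of 4 libraries looked at for a library far from the rest, 2 had one, where chance flags about 1 in 20 groups. Pgk1, phosphoglycerate kinase, was 462.7 in Control library 1, against 344.7 to 360.7 in the other Control libraries. Pdp2, a pyruvate dehydrogenase phosphatase, was 241.4 in Control library 3, against 310.9 to 314.1 in the other Control libraries.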

How the results depend on the processing

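The number of genes called in the whole table, 239, was 776 with DESeq2, 98 without the Control libraries numbered 517 and 518, 17 with KO library 3 as the lone knockout library, 140 with a B cell score and 152 with a mammary score as covariate, and 71 to 429 on leaving out 1 library. Genes of the list called higher, 1 as reported, numbered 6 with DESeq2, 2 with the muscle score, 0 with KO library 3 alone and 0 to 5 on leaving out 1 library. The 0 followed leaving out KO library 2, KO library 4 or Control library 4, where 91, 71 and 138 genes of the whole table were called. The 5 followed leaving out KO library 3, where 429 were called. With the muscle score 246 genes of the whole table were called. Genes of the list called lower, 0 as reported, numbered 1 with DESeq2. Other pathway genes called higher, 0 as reported, numbered 1 with DESeq2 (Pdk3). Those called lower, 2 as reported, numbered 3 with DESeq2 (Ldhd, Epas1 and Shpk) and 1 with edgeR, limma-voom, equal totals, TMM, median-of-ratios scaling, no filter, a filter at 50, a pseudocount of 0.5 and the B cell score. They numbered 0 without the Control libraries 517 and 518, with KO library 3 alone, and with the muscle and mammary scores, and 0 to 2 on leaving out 1 library. The fold changes of Eno3 (-0.42), Pfkm (-0.20) and Pgam2 (-0.48) were reversed with KO library 3 as the lone knockout library, which is assumed to vary like the Control libraries. In that fit fewer libraries were used. Beyond that, the cause of these changes was not tested. With 4 libraries per group, the test recovered 50% of simulated 1.5-fold changes, 84% of 2-fold and 100% of 4-fold and 8-fold ones. The simulated data held no shared shift in cell content such as the muscle markers of the real libraries.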
